A study of Mus musculus with 4 samples.

Results

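The proteasome genes comprised every gene on the array whose name starts with Psma to Psmg followed by a digit, taken from the annotation of all non-control spots on the 4 arrays. The rule found 49 of the 24185 named genes, measured by 62 probes on 71 spots of each array. Of these, 47 genes passed the detection filter and were tested among 19698 genes, whereas Psma8 and Psmb11, subunits known from testis and thymus, were well above background on no array. The set held 19 genes of the 20S core, 17 of the 19S cap, 4 activators, 1 inhibitor, 7 assembly chaperones and Psmc3ip, which shares the name stem but encodes a recombination cofactor and no subunit.

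Tissue came from the cortex and hippocampus of male C57BL/6 mice aged 8 weeks, with no transgene or drug named for either group, and its lysate was used for RNA immunoprecipitation (RIP). The lysate was divided between CPEB2 IgG and control IgG, and the procedure was run in 2 independent experiments, which gave 2 arrays for each antibody. RIP reads which RNAs were recovered with an antibody, so a value below that of control IgG is a smaller share among the recovered RNAs and not a lower level in the tissue. Whether each experiment used 1 mouse or a pool was not given in the sources used here. A text field of both CPEB2 IgG arrays names CPEB3 IgG, while their titles and the protocol name CPEB2. Each antibody also held its own positions on 1 slide, so position and antibody cannot be told apart.

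The proteasome degrades proteins that carry ubiquitin chains. Its 20S core is a barrel of alpha rings, which form the gate, and beta rings, which hold the proteolytic sites, and its 19S cap binds, unfolds and feeds in the substrate with a ring of ATPases and a set of non-ATPase subunits. In neurons the complex is found at synapses, where protein turnover contributes to plasticity. CPEB2 binds mRNAs through the cytoplasmic polyadenylation element (CPE), a short U-rich sequence in the untranslated 3′ end, and regulates their translation.

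The arrays were alike in quality, with 68.4% to 74.1% of spots well above background, no saturated spot and no proteasome spot marked as an outlier. Cpeb2 mRNA, at 2409.7 and 1877 raw units with CPEB2 IgG, stood against 299 and 297 with control IgG. Gapdh ran the other way, at 48249.7 and 39694 against 253696 and 266689. Alb, a liver marker, was not detected, and the 5 neuron markers Camk2a, Gad1, Rbfox3, Snap25 and Syt1 were detected and not called in either direction, like Ins2 and Myh6, genes of pancreas and heart. Markers of other brain cells did move. Of 4 astrocyte markers Slc1a3 rose (3.44) and Aldh1l1 (-3.77) and Gfap (-0.90) fell, of 4 microglia markers Aif1 (-2.64) and Csf1r (-1.353) fell, of 4 oligodendrocyte markers Mag fell (-0.84), and of 3 endothelial markers none was called. The part of these markers' cell types in the proteasome values was not tested. Values below are log2 fold changes, CPEB2 IgG minus control IgG within an experiment, given as mean ± SD of the 2 experiments (n = 2), after scaling each array to its 75th percentile. A gene was called when its limma p, adjusted over all genes tested, was below 0.05. Of all genes tested, 20.4% were called lower and 21.2% were called higher with CPEB2 IgG, and the median was -0.11.

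Proteasome mRNAs were mostly recovered less with CPEB2 IgG than with control IgG. Of the 47 tested, 28 fell, 1 rose and 18 were not called, so 59.6% were called lower beside 20.4% of all genes. Their median was -1.51, with 34 genes below 0 in both experiments and 7 above 0 in both. Over all 19698 genes tested, 8509 were below 0 in both and 7193 were above 0 in both. The 20S core and the 19S cap lay close together, the constitutive beta subunits lay lower than the alpha subunits, and the assembly chaperones had a median of -0.26. The exception that rose was Psmd7, a non-ATPase subunit of the 19S lid.

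**Figure D1:**
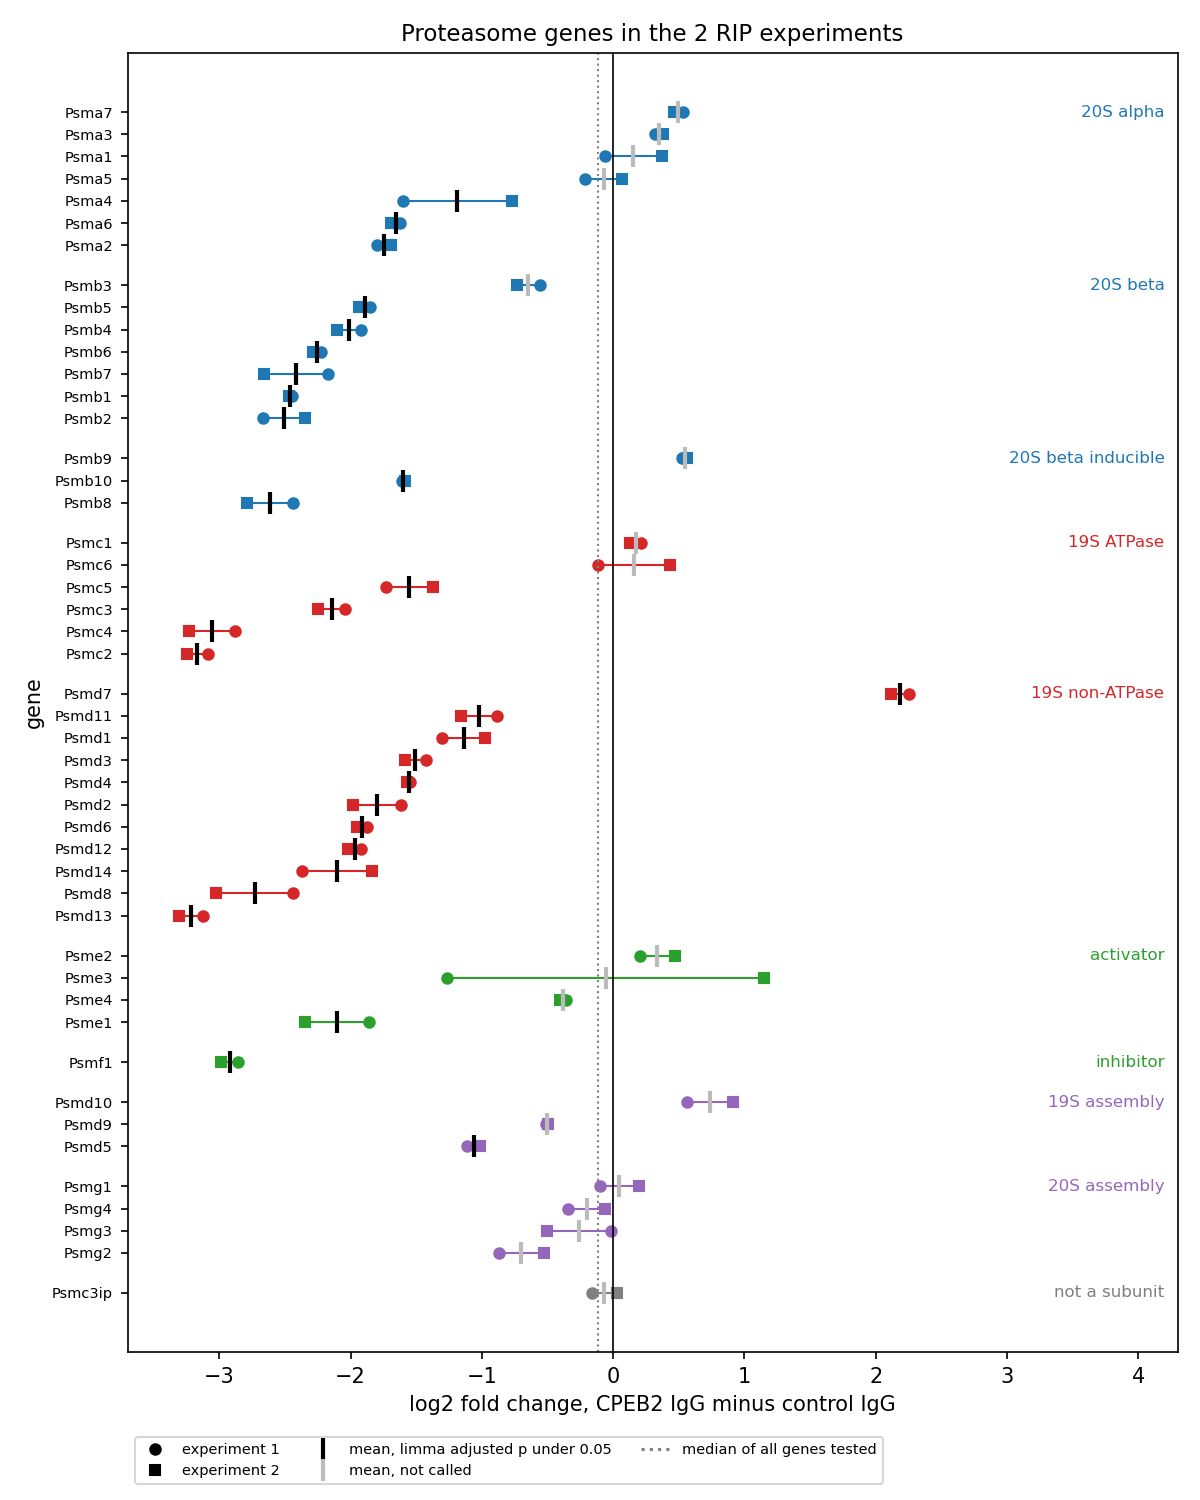
Log2 fold change (CPEB2 IgG minus control IgG) of each of the 47 tested proteasome genes, grouped by role, with a circle for experiment 1, a square for experiment 2 and a bar for the mean. Most genes lie to the left of 0 with their experiments close together, Psmd7 lies alone at the right, and Psme3 has its experiments on opposite sides of 0.

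The alpha subunits, which form the outer rings of the core, divided into 2 sets. Psma2, Psma4 and Psma6 fell, and Psma1, Psma3, Psma5 and Psma7 were not called, with a median of -0.07 over the 7. This median changed sign with the setting, at 0.15 with median centring and 0.042 with GC bin centring, and between the experiments, at -0.21 in experiment 1 and 0.067 in experiment 2. Psma2 was the lowest in the main setting, with raw signals of 4949.7 and 4915 on the CPEB2 IgG arrays against 18208 and 16120.2 on the control IgG arrays. Both CPEB2 IgG arrays lay below both control IgG arrays, and Psma2 fell by 1.74 ± 0.07 (adjusted p = 0.0073). Psma6 lay beside it at -1.66 ± 0.05 (adjusted p = 0.0079), and below it under quantile normalization, at -1.75 against -1.68.

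Psma7, an alpha subunit, was the highest of the ring. It had 21096 and 19911 with CPEB2 IgG against 15446 and 14695 with control IgG. The arrays of the 2 antibodies did not overlap, yet the difference of 0.50 ± 0.05 missed the threshold (adjusted p = 0.15). Psma3 stood at 0.35 ± 0.05, and Psma1 and Psma5 at 0.15 and -0.07 with their experiments on either side of 0. Psma4 gave -1.60 in experiment 1 and -0.77 in experiment 2 (mean -1.19, adjusted p = 0.034), and its second probe gave -1.69 in both. Without the filter on dim probes the limma adjusted p of Psma4 was 0.11. The call of Psma4 on its brightest probe was lost when either control IgG array was left out, at an adjusted p of 0.098 without the first and 0.074 without the second.

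The constitutive beta subunits were low as a group, with 6 of 7 lower and a median of -2.26. Among them are the subunits that carry the proteolytic sites, and each of those fell. Psmb5, which carries the chymotrypsin-like site, had 14062 and 13348 against 53746 and 51817, a decrease to 0.27 of the control signal (-1.89 ± 0.06, adjusted p = 0.0065). Psmb6, the caspase-like subunit, had 7667 and 6681 against 38078 and 33191 (-2.26 ± 0.04, adjusted p = 0.0055). Psmb7, the trypsin-like subunit, had 869 and 861 against 4145 and 5542 (-2.42 ± 0.35, adjusted p = 0.0056). In none of the 3 did the antibodies overlap. With 2 arrays for each antibody this says little, since uncalled genes such as Psma3 and Psme4 did not overlap either. The share of all genes without overlap was not counted.

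The beta subunits without a proteolytic site followed the same course with 1 exception. Psmb2 was the lowest in the main setting, with 91.2 and 119 against 613 and 618 (-2.51 ± 0.22, adjusted p = 0.0054). Psmb1 and Psmb4 fell as well, at -2.46 and -2.01. Psmb1 lay below Psmb2 under quantile normalization (-2.51 against -2.45) and with normexp background correction (-2.37 against -1.98). Psmb3 was the highest, with 12816 and 10997 against 19940.0 and 18609.6, and its -0.65 ± 0.13 was not called (adjusted p = 0.086).

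The inducible beta subunits replace the proteolytic ones in the immunoproteasome, and their 3 genes did not move together. Psmb8, the counterpart of Psmb5, had 51.6 and 29.0 against 297 and 204, and it fell by 2.62 ± 0.25 (adjusted p = 0.0054). With normexp background correction the value was -1.54, so the size of the decrease depended on the background step at these low signals. Psmb10, the counterpart of Psmb7, had 4588 and 4149.8 against 14821 and 12672.5, a difference of -1.60 ± 0.02 (adjusted p = 0.0084). Psmb9, the counterpart of Psmb6, had 391 and 299 against 288 and 206. Its CPEB2 IgG array of experiment 2 lay only just above the control IgG array of experiment 1, and 0.54 ± 0.03 was not called (adjusted p = 0.12). A second Psmb9 probe was well above background on 1 array only.

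**Figure D2:**
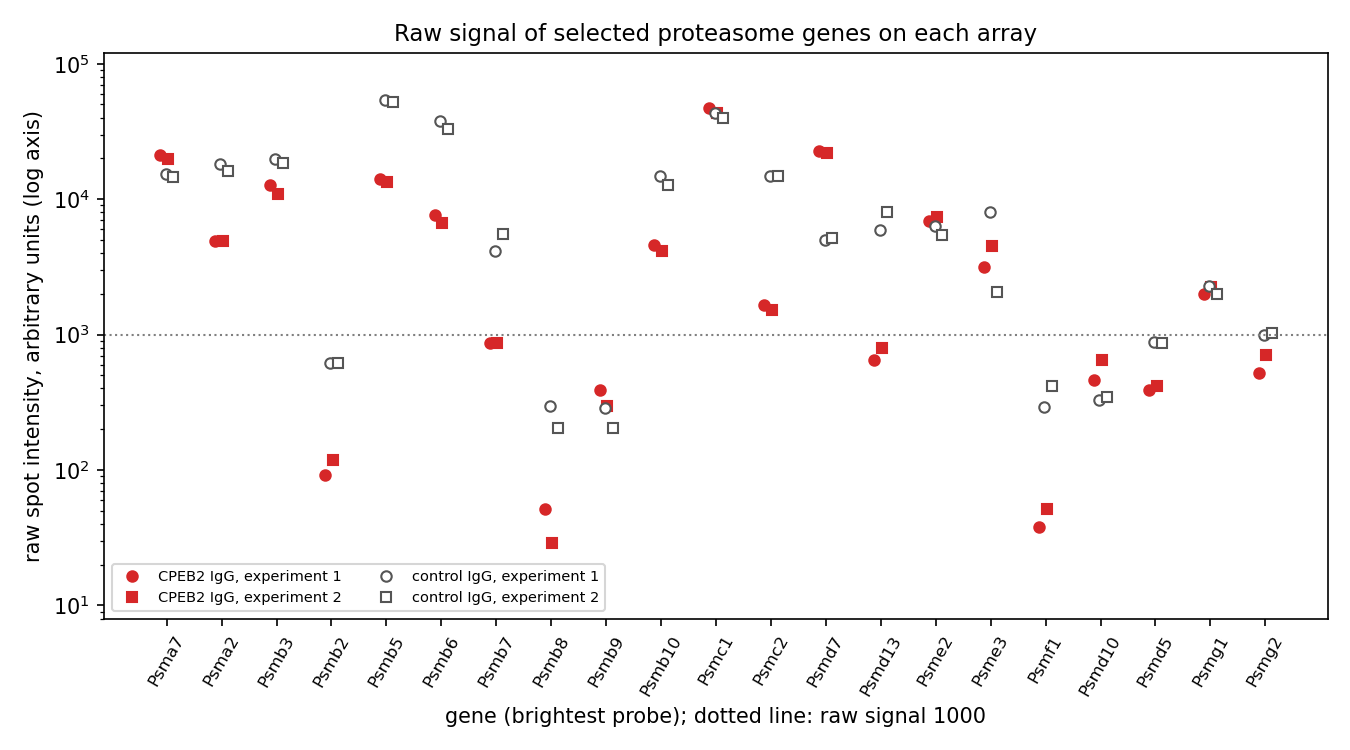
Raw spot intensity (log axis, arbitrary units) of the brightest probe for 21 proteasome genes, with filled red symbols for CPEB2 IgG and open symbols for control IgG, circles for experiment 1 and squares for experiment 2. The red symbols of Psmd7, at 22553 and 22050.3, lie above the open ones, while those of Psmc2, Psmd13, Psmb8 and Psmf1 lie far below.

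The ATPases of the 19S cap form the ring that unfolds substrates, and 4 of the 6 fell, with a median of -1.85. Psmc2 was the lowest, at 1648 and 1527 against 14870.5 and 14736, an 8.99-fold lower recovery (-3.17 ± 0.11, adjusted p = 0.0054). Psmc4, Psmc3 and Psmc5 fell too, at -3.06, -2.14 and -1.55. Psmc1, whose product helps to open the gate of the core, had signals of 47185 and 43050.3 against 43121 and 39925. These were nearly level between antibodies in the main setting (0.17 ± 0.06, 95% interval -0.43 to 0.78). Under GC bin centring the value was 0.65, the highest among the alternatives. Psmc6 stood at 0.16 with experiments of -0.12 and 0.43, and neither Psmc1 nor Psmc6 was called.

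Within the 11 non-ATPase subunits, 10 fell and Psmd7 rose, with a median of -1.80. Psmd13 was the lowest of all proteasome genes in the main setting, with 645 and 795 against 5952 and 8003, a 9.29-fold lower recovery (-3.22 ± 0.13, adjusted p = 0.0054). Its highest value under the alternatives was -2.74 and that of Psmc2 was -2.94, so this rank depended on the setting. Psmd8 and Psmd14 fell, at -2.73 and -2.10, and the latter encodes the deubiquitinase that removes chains from substrates. Psmd12, Psmd6, Psmd2, Psmd4 and Psmd3 lay between -1.97 and -1.51. Psmd4 encodes a ubiquitin receptor of the cap.

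The smallest decreases among these subunits were those of Psmd1 at -1.14 ± 0.23 (adjusted p = 0.022) and Psmd11 at -1.02 ± 0.19 (adjusted p = 0.027). Psmd1 lost its call without the filter on dim probes, and Psmd11 lost its call there and under median and GC bin centring. Both calls were kept when either CPEB2 IgG array was left out and lost when either control IgG array was. Without the first control IgG array the adjusted p was 0.076 for Psmd1 and 0.079 for Psmd11, and without the second it was 0.052 and 0.094.

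Psmd7 encodes the partner of the Psmd14 deubiquitinase in the lid, and it ran against its complex. The probe read 22553 and 22050.3 on the CPEB2 IgG arrays against 5001 and 5166 on the control IgG arrays. Both CPEB2 IgG arrays lay far above both control IgG arrays. The gene was 4.55-fold higher (2.19 ± 0.10, 95% interval 1.58 to 2.79, adjusted p = 0.0056). It kept its direction under every alternative tried, between 2.08 and 2.41, and was called in each that had a test. Its highest limma adjusted p among them was 0.0447. The study's thresholds, a fold above 1.5 with a raw signal above 1000, were applied here without a CPE criterion. The use of the mean fold, of a raw signal on either CPEB2 IgG array and of the brightest probe was chosen here. So applied, they were passed by 16.4% of all genes and by Psmd7 alone among the 47. The thresholds turned the other way were passed by 25 proteasome genes, beside 13.1% of all genes.

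Psmd7 was read by a single probe on the minus strand at chr8:110104402-110104461 (mm9), and Psmd13 by one on the plus strand at chr7:148084248-148084307 (mm9). The annotation gives positions and transcripts but not the exon or untranslated region. The first bases of both probes are shown because these genes mark the ends of the range of genes in the main setting. Neither probe holds a CPE in the letters TTTTAT or TTTTAAT.
Psmd7: ttcataattgctaaatggaattcatggatc
Psmd13: catcagcagagatctgtattcacttgggat

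The activators cap the core in place of the 19S particle and were not alike. Psme1, a subunit of the interferon-inducible PA28 ring, had 1250.5 and 880.4 against 4820.1 and 4546 and fell by 2.10 ± 0.34 (adjusted p = 0.0064). Psme2, its partner in that ring, was the highest of the group, with 6901 and 7425 against 6341 and 5451, and was not called (0.34 ± 0.19, adjusted p = 0.31). Its probes may also read a near-identical copy, so the value of Psme2 is uncertain. Psme4, which encodes PA200, gave -0.38 ± 0.03 and was not called. Psmf1, an inhibitor of the core, had 37.8 and 51.4 against 289.6 and 414 (-2.92 ± 0.09, adjusted p = 0.0054), and -1.82 with normexp background correction.

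Psme3, which encodes the nuclear activator PA28 gamma, had the widest gap between experiments of the 47 genes, and was 1 of 6 with the experiments on either side of 0. Its signals were 3172 and 4540.1 with CPEB2 IgG against 8092 and 2075 with control IgG, so the control IgG arrays lay on either side of both CPEB2 IgG arrays. The fold change was -1.27 in experiment 1 and 1.15 in experiment 2, with a mean of -0.06 ± 1.71 that was not called (adjusted p = 0.95). The only Psme3 probe lies on the plus strand at chr11:101184289-101184348 (mm9) and holds GT repeats, shown in capitals in this 30-base stretch.
Psme3: catGTGTGTGTGTGTtcGTGTGTGTGTGTt

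Other probes with this repeat shared the pattern. Of the 19698 genes tested, 172 had GTGTGTGT in the probe, searched on the probe strand alone, and 120 of them (69.8%) were below 0 in experiment 1 and above 0 in experiment 2, beside 1278 of the 19526 others (6.55%). Their medians were -1.28 and 1.08. The repeat was looked for after the values of Psme3 were seen. Psma5 was the other proteasome gene with the repeat in its probe, at -0.21 and 0.07. The part of the repeat in the value of Psme3 was not tested.

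**Figure D3:**
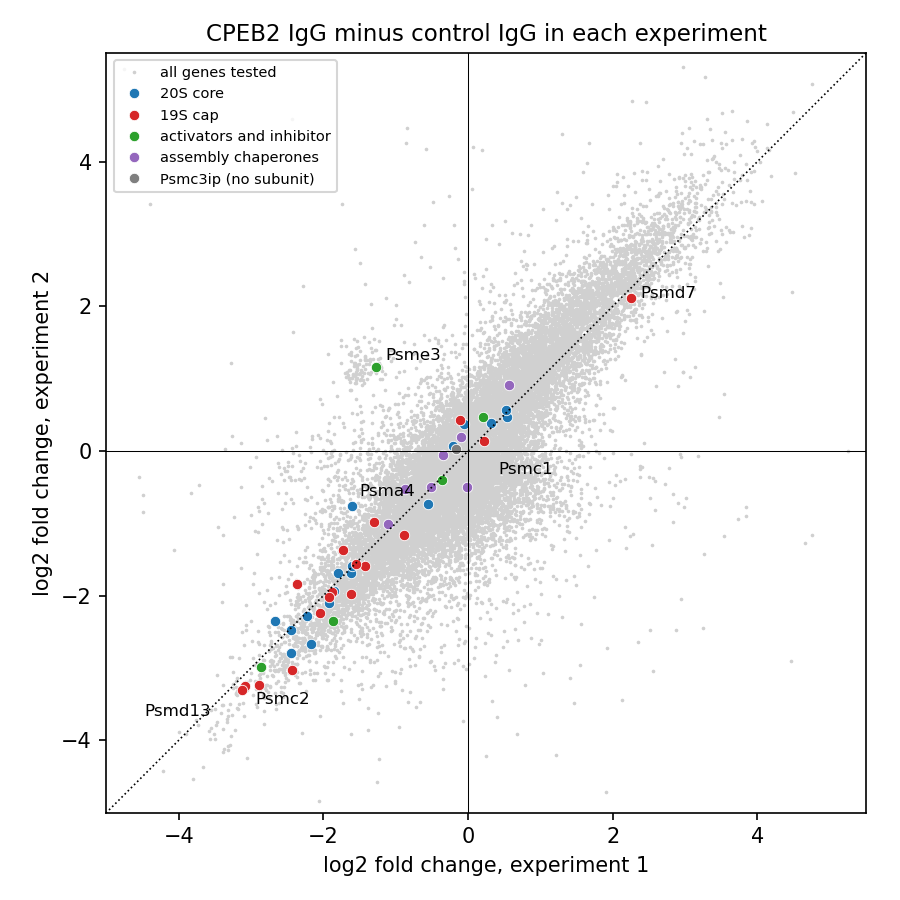
Log2 fold change (CPEB2 IgG minus control IgG) in experiment 1 against experiment 2, with all 19698 genes tested in grey, proteasome genes in colour by complex and a dotted line of equality. Most coloured points follow the line at the lower left, Psmd7 lies at the upper right, and Psme3 lies in a separate grey cloud at the upper left.

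Across the 47 genes the fold changes of the experiments ran together (Pearson 0.94, Spearman 0.95). This is a description over genes that share the 4 arrays.

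The assembly chaperones, which help to build the complex and leave it, lay on both sides of the median of all genes. Of the 7 tested, Psmd5 fell and 6 were not called, with a median of -0.26 (-0.34 in experiment 1 and -0.49 in experiment 2). It was -0.03253 with median centring, turned to 0.03191 with GC bin centring and was -0.42 without the first CPEB2 IgG array. Psmd5, a chaperone of the 19S base, had 387 and 419.96 against 884 and 863 (-1.06 ± 0.07, adjusted p = 0.023), and its adjusted p was 0.074 and 0.077 when the first or the second control IgG array was left out. For Psmd5 the limma adjusted p was 0.057 without the filter on dim probes and 0.060 under GC bin centring. The 4 Psmg chaperones of the 20S core lay between -0.70 and 0.05. Psmg1 was the highest, with 1996 and 2258 against 2266 and 2002. The lowest was Psmg2, with 517 and 705 against 1001 and 1033, a difference of -0.70 ± 0.24 that was not called (adjusted p = 0.077).

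Psmd10, the chaperone also known as gankyrin, had 461 and 647 against 331 and 349 on its brightest probe (0.74 ± 0.25, adjusted p = 0.069). A second probe of Psmd10 read the opposite direction, with 229 and 259.8 against 565 and 475. That probe gave -1.03 ± 0.26 and was called lower in a separate limma fit over probes (adjusted p = 0.04999). Psmd9, another base chaperone, had 207 and 230.3 against 312 and 329 on its brightest probe (-0.50 ± 0.01). Its second probe had 93.0 and 61.5 against 782 and 866, a value of -3.39 ± 0.57 (adjusted p = 0.0068 in the limma fit over probes). The direction of Psmd10 and the size of the Psmd9 difference therefore depended on the probe.

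The probes of Psmd10 lie on the minus strand at chrX:137482968-137483027, and over the span chrX:137483840-137486736, which is longer than the 60-base probe and so crosses an intron. Those of Psmd9 lie on the plus strand at chr5:123698524-123698583 and chr5:123691881-123691940 (all mm9), the brightest probe of each gene being the one nearer its 3′ end. Their first 30 bases are shown because each pair reads 1 gene with different results.
Psmd10 brightest probe: ttgtatttcaagtactacagacctggattt
Psmd10 second probe: gttctacaaagcatccacaaacatccaaga
Psmd9 brightest probe: tgatttgtgcctagctacgtcttgtgcaaa
Psmd9 second probe: tgaacacccaaaacttccagtcagtgcaga

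The other genes with several detected probes agreed better. Of the 49 genes, 12 had several probes and 11 had several detected ones. The second probe of Psmb5 gave -2.49 ± 0.25, that of Psmc3 -2.36 ± 0.24 and that of Psmd12 -2.24 ± 0.37, each below 0 in both experiments like the brightest probe. The Psmc1 probes gave 0.17 and -0.01, both near 0, and the Psme4 probes -0.38 and -1.01. The Psmc2 probes gave -3.17 and -3.06 but share 50 bases, so they are not separate readings. The second probe of Psme2 gave 0.08, and the third, well above background on 3 arrays, gave -1.03 in experiment 1 and 0.68 in experiment 2.

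**Figure D4:**
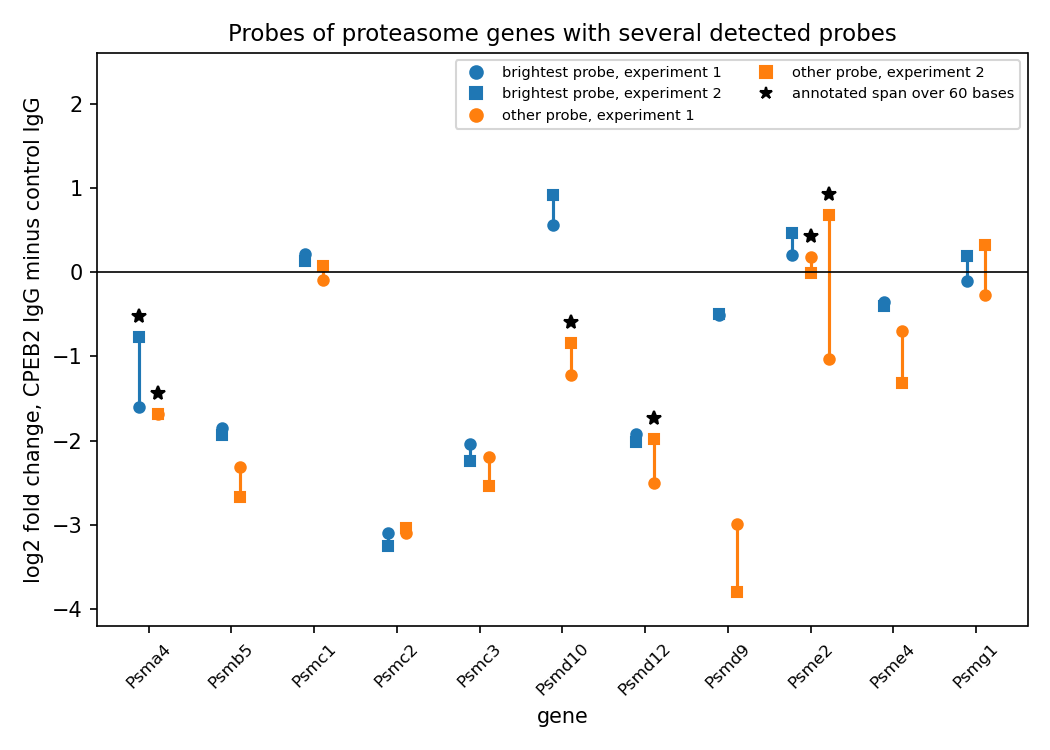
Log2 fold change (CPEB2 IgG minus control IgG) of each detected probe for the 11 proteasome genes with several, in blue for the brightest and orange for the others, with circles for experiment 1, squares for experiment 2 and a star above probes whose annotated span exceeds 60 bases. The probes of Psmd10 lie on opposite sides of 0, and those of Psmd9 lie far apart.

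The core and the cap were next set against each other. The 20S core had 11 of 17 tested genes lower and none higher by limma, with a median of -1.66 (-1.62 in experiment 1 and -1.69 in experiment 2). At an unadjusted limma p below 0.05 no core gene was higher either, and Psmb3 joined the lower ones. Under other settings Psma7 was called higher in 4 alternatives and Psmb9 in 1. The 19S cap had 14 of 17 lower and 1 higher, with a median of -1.80 (-1.73 and -1.84). The difference of the medians, core minus cap, was 0.14 (0.11 and 0.15), small beside the spread of genes within either particle. It was 0.070 without the first control IgG array and 0.23 with quantile normalization. It became -0.10 when Psmd5, Psmd9, Psmd10 and Psmc3ip were counted with the cap by their names, so its direction depended on which genes were counted. Within the core, alpha minus constitutive beta medians differed by 2.19 (1.96 and 2.36). No test was run on these medians, since genes are not replicates. The alpha and constitutive beta probes were not alike, with a median GC content of 38.3% against 41.7%. Annotated spans above 60 bases belonged to the probes of Psmb1, Psmb2, Psmb4 and Psmb7, and to Psma4 alone among the alpha genes. The part of these probe features in the difference was not tested. The activators and the inhibitor had a median of -0.38 over 5 genes (-1.27 in experiment 1 and -0.40 in experiment 2), and 2 of them fell. That median was -1.01 without the second control IgG array, -0.70 with the mean of each gene's probes and -0.15 with median centring.

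**Figure D5:**
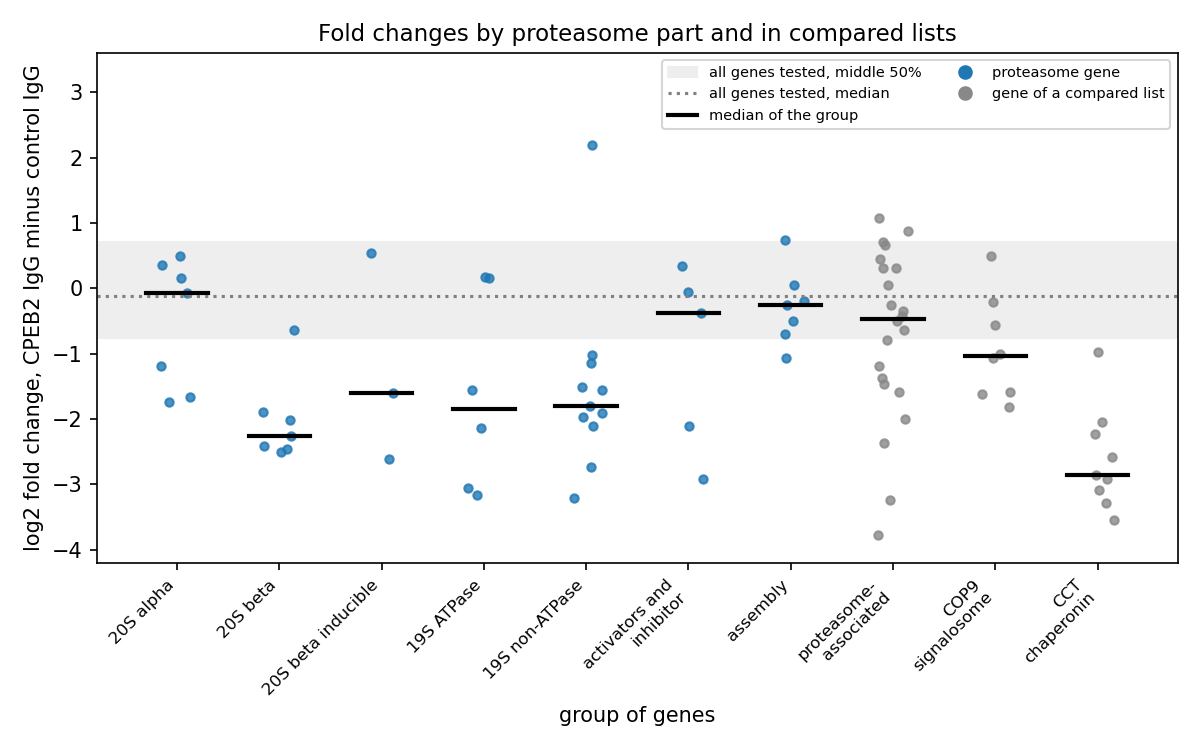
Log2 fold change (CPEB2 IgG minus control IgG) of every tested gene by proteasome part in blue and in compared lists in grey, with a black bar at each group's median, the dotted line at the median of all genes tested and the band over their middle 50%. The constitutive beta and 19S subunits lie mostly below the band, and the CCT chaperonin genes lie lower still.

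Among 22 other genes of the ubiquitin and proteasome pathway, 8 fell (36.4%, beside 20.4% of all genes) and 2 rose (9.09%, beside 21.2%). The other 12 were not called, and the median was -0.47. Those that fell included Pomp, the core maturation factor, at -1.999 and Adrm1, a ubiquitin receptor of the cap, at -2.36. Ubb, a polyubiquitin gene, stood at -3.77, and Rps27a, which encodes ubiquitin fused to a ribosomal protein, stood at -1.38. Uchl5, a deubiquitinase of the cap, fell by 1.58. Akirin2, which helps to import proteasomes into the nucleus, rose by 1.08 (adjusted p = 0.025), and Zfand5, a proteasome-binding zinc finger protein, rose by 0.88 (adjusted p = 0.038). Nfe2l1, the transcription factor that drives proteasome genes, stood at -0.43 and was not called.

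Low recovery was also measured in other complexes. The COP9 signalosome, which resembles the 19S lid in build, had 5 of 8 genes lower and a median of -1.04, and the CCT chaperonin had 9 of 9 lower and a median of -2.86. Cytosolic ribosomal protein genes had 28 of 78 lower (35.9%) and 14 higher (17.9%), with a median of -0.62. Over all genes tested the shares were 20.4% lower and 21.2% higher. Spot brightness, which depends on the probe as well as the RNA, was high for proteasome genes, with a median at the 82.1 percentile, and 26 of the 47 lay in the brightest of 5 equal bands of all genes. In that band, 16 of the 26 (61.5%) were called lower, beside 25.4% of all genes.

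Probe features also ran with the values. Of the 13 detected proteasome probes whose span lay above 60 and below 100000 bases, 12 were lower, with a median of -2.01, against 23 of the 45 others, with a median of -1.06. These calls came from the separate limma fit over probes. Some of the 12 lay close to the threshold there, with adjusted p of 0.0489 for Psmd11, 0.0494 for the brightest Psma4 probe and 0.04999 for the second Psmd10 probe. The third Psme2 probe, with an annotated span of 219297 bases, was left out of this count and stood at -0.18, not called. Over all named genes the shares lower were 35.6% and 16%. Probe GC content correlated with the fold change over all genes tested (Pearson -0.36) and over the 47 (Pearson -0.24, Spearman -0.22), as a description over genes that share arrays. At 40% to 45% GC, 19 of 27 proteasome genes (70.4%) were lower, beside 22.6% of all genes. The shares were 33.3% beside 10.8% at lower GC and 62.5% beside 35% at higher GC. The part of probe span and GC content in the proteasome values was not tested.

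The CPE letters TTTTAT or TTTTAAT, searched on the probe strand, occurred in 1731 of the 33256 probes of named genes (5.21%) and in 2 of the 62 proteasome probes (3.23%). Those were the probes of Psmb3 and Psmg1, both uncalled, shown here with the CPE in capitals. A probe covers only part of a transcript, so absence of the letters from it says nothing of the rest.
Psmb3: cttttgtttttctTTTTAATaaaattgcct
Psmg1: tgatgttttgtaTTTTATtctggcttggga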

How the data were processed

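RNA recovered with CPEB2 IgG or control IgG was labelled with Cy3 and hybridised to Agilent mouse expression arrays, 2 for each antibody. The authors deposited 1 scanner file per array from Agilent Feature Extraction 10.5.1.1 (per the file headers), and its values are spot intensities after that software's background correction, with no normalization between arrays. Gene names and probe positions (mm9) were taken from the array's annotation. By transcript accession, 60 of the 62 proteasome probes matched the same symbol in RefSeq (GRCm38.p6) and the other 2 had no match.

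Control spots were left out, as were those with a non-uniformity or population outlier mark, and 66 of 55681 probes without a value on every array were dropped. Log2 intensity minus the 75th percentile of each array was used. Probes well above background on at least 2 of the 4 arrays entered, and the brightest probe stood for a gene. limma 3.58.1 in R 4.3.3 was fitted over all 19698 genes with the experiment as a block, since the methods divide 1 lysate between the antibodies. Same-numbered arrays correlated at 0.203 in their deviations from the group means. The Benjamini-Hochberg threshold was 0.05, and 95% intervals are those of limma. A separate limma fit over probes gave the calls of single probes. The fit leaves 1 residual degree of freedom and leans on the spread shared by all genes. An exact permutation of 2 against 2 arrays cannot give a two-sided p below 0.333. The number of arrays limits the precision. Other scalings, background correction, detection filters, probe choices, thresholds, a fit without the block and the removal of each array were tried as alternatives. Python 3.11.15 with numpy 2.4.6, pandas 2.3.3 and matplotlib 3.10.9 was used for the rest.

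Genes with values on every array were the highest and lowest of each subgroup (activators and inhibitor together, 19S assembly chaperones not included), Psmb5 to Psmb10, genes past the thresholds and genes whose probes differ in sign. Psme1, Psme3, Psmd5 and Psmd9 were added after their values were seen. The members and lists were chosen with earlier results of these data known.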

Additional observations from a re-analysis of the deposited data

How the results depend on the processing

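Of 29 called proteasome genes, 25 kept their call under every alternative with a test, and no called gene changed direction. Some calls were kept narrowly. Without the filter on dim probes the limma adjusted p was 0.0447 for Psma2, Psma6, Psmb1 and Psmb2, for example. The calls lost were those of Psma4, Psmd1, Psmd5 and Psmd11, each without the filter on dim probes and when either control IgG array was left out, of Psmd11 also under median and GC bin centring, and of Psmd5 also under GC bin centring. Without the replicate block the counts were 28 lower and 1 higher, as with it. The cause was not tested for any change below. With 1 array left out, the lone array is assumed to vary like the other group.

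The number of genes lower ranged from 24 without the filter on dim probes to 30 with normexp correction or an intensity trend. The share of all genes called lower moved too, at 7.6% without that filter, 23.2% with normexp correction and 23.8% with an intensity trend. The number higher was 2 under quantile normalization, median centring and detection on all 4 arrays, and 3 under GC bin centring, normexp correction and an intensity trend. Among all genes 4174 were called higher in the main setting. In the alternatives just named, in the same order, 4701, 5212, 4597 (of 17822 tested), 4950, 4966 and 4923 were. The genes past the thresholds were 2 under quantile normalization, under median centring and with a raw signal above 500. Under GC bin centring they were 3, namely Psma7, Psmc1 and Psmd7. The share of all genes past the thresholds was not counted under these alternatives. With arrays left out the number higher ranged from 1 to 2, the number lower from 24 to 29 and the number past the thresholds from 1 to 2. The median of the 20S core was -1.43 with median centring, -1.71 with no scaling, -1.76 with the percentile of probes detected on all arrays, -1.34 with GC bins, -1.57 with normexp and -1.60 with no filter. That of the 19S cap was -1.57, -1.91 and -1.49 with median centring, the detected-probe percentile and GC bins. Their difference was 0.23 with quantile normalization, 0.20 with normexp and 0.20 with no filter, and with an array left out was 0.102 and 0.105 without CPEB2 IgG array 1 or 2 and 0.070 without control IgG array 1. With an experiment left out it ranged from 0.11 to 0.15. It was -0.10 when all Psmc and Psmd names counted as cap, an alternative chosen after seeing the data. The median of all genes was 0.11 with median centring, 0.08 with GC bins and -0.22 with the detected-probe percentile, against -0.11 as reported.

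Uncalled genes crossed 0 as follows. With experiment 1 alone, Psma1 was -0.060, Psmc6 -0.12 and Psmg1 -0.10. With experiment 2 alone, Psma5 was 0.067, Psmc3ip 0.026 and Psme3 1.15. Under median centring Psma5 was 0.15, Psmc3ip 0.16, Psme3 0.17 and Psmg4 0.026. Under GC bin centring Psma5 was 0.042, Psmc3ip 0.084, Psmc6 -0.032, Psme3 0.26, Psmg3 0.23 and Psmg4 0.032. Under quantile normalization Psmc3ip was 0.068 and Psmg1 -0.086, Psmg1 was -0.0049 with no scaling and -0.059 with the detected-probe percentile, and Psmd10 was -0.15 as the mean of its probes. With 1 array left out, Psma1 reached -0.023, Psma5 0.047, Psmc6 -0.082, Psme3 0.20 and 0.89, Psmg1 -0.041 and -0.011, and Psmg3 0.060. Calls were gained by 6 genes. Psmg2 was called lower in 6 alternatives and Psmb3 in 2, Psmd10 was called higher in 5, Psma7 in 4 and Psmb9 in 1, and Psmd9 was called lower as the mean of its probes, at -1.95.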
